A study of Bos taurus with 15 samples.

Results

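STAR, CD44, CSF1R and SRGN are 4 transcripts best known from somatic and blood cells, and their counts were followed through single oocytes of the bovine dominant follicle (DF). They are 4 of the 21218 genes in the count table, found as the rows whose Ensembl identifiers carry these symbols in the study's supplementary list of 1829 named genes, and all of them had a row (STAR ENSBTAG00000033345, CD44 ENSBTAG00000011578, CSF1R ENSBTAG00000012771, SRGN ENSBTAG00000017863). That list was drawn up by the study from a comparison of DF oocytes with another class of oocytes, not analysed here, so it was chosen partly on these same oocytes but not on their time points. The question put to the counts was whether the 4 transcripts were high in the same oocytes or each in oocytes of its own.

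STAR codes for the steroidogenic acute regulatory protein, which moves cholesterol into mitochondria and thereby controls the first step of steroid synthesis in theca, granulosa and luteal cells. CD44 is a cell surface receptor for hyaluronan, the sugar polymer of the expanding cumulus matrix, and is carried by leukocytes as well as by cumulus cells. CSF1R is the receptor for colony stimulating factor 1 and interleukin 34 on monocytes and macrophages, and SRGN codes for serglycin, the proteoglycan on which leukocytes, platelets and endothelial cells pack the contents of their secretory granules. An oocyte in its follicle is joined to cumulus cells through fine projections across the zona pellucida, so transcripts of somatic genes in a collected oocyte may be its own, may have been passed to it or may come with cells still attached, and counts from 1 denuded oocyte cannot tell these apart.

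The 15 oocytes came from 15 crossbred nulliparous beef heifers whose oestrus had been synchronised with a GnRH analogue, a progesterone device and a prostaglandin analogue, and each animal gave 1 oocyte. Oocytes were freed of cumulus cells by pipetting, and polyadenylated RNA was amplified by the Smart-seq2 method. T1 oocytes (n = 6) were taken 24 h before ovulation, T2 oocytes (n = 4) 19 to 23 h after oestrus detection and T3 oocytes (n = 5) 2 h before ovulation. The titles of the T2 samples count the same hours from ovulation, and the treatment field is followed here. A second GnRH dose was given to a subgroup of animals, which the study's methods name where they give 1 day of slaughter for T2 and T3 together, so which of these oocytes it reached is not settled and time and that treatment cannot be told apart, and the trial each oocyte came from was not given.

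The study retained 11 oocytes (5 T1, 4 T2 and 2 T3), which form the main set, and left out T3.1, T3.3, T3.5 and the T1 oocyte T1.4. Library totals ranged from 824854 to 4894970 counts in the 11 oocytes and from 175263 to 2874041 in the other 4, in which fewer genes had more than 1 count (2366 to 7071, against 8257 to 10898). Of 18 oocyte markers 4 could be named, FIGLA, OOSP2, KPNA7 and NLRP5. All 4 had counts in 11 of 11 oocytes, together 3293 to 15830 CPM (the counts of a gene in each 1e+06 counts of its library). Names came only from the study's list, chosen partly on these same oocytes, so finding these markers is no test of the cells. In T3.1 OOSP2 alone took 188000 CPM, while FIGLA had 1 count and NLRP5 none. Levels below are CPM on that scale, and since transcript lengths were not used, they are compared between oocytes but not between genes.

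STAR was found in every oocyte, and its level differed the least among the 4 transcripts. At T1 it stood at 93.9 CPM in T1.1, 80.8 in T1.2, 294 in T1.3, 201 in T1.5 and 376 in T1.6, with 131 in T1.4. At T2 it stood at 188 CPM in T2.1, 365 in T2.2, 227 in T2.3 and 227 in T2.4. At T3 it stood at 111 CPM in T3.2 and 54.3 in T3.4, and at 22.8 in T3.5 (from 4 counts), 51.5 in T3.3 and 29.0 in T3.1. The 5 T3 oocytes were all below the 4 T2 oocytes, whereas T1 oocytes overlapped both groups. In the main set STAR averaged 202 ± 111 CPM (SD, n = 11), with a 6.93-fold span between T3.4 and T1.6.

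CD44, the hyaluronan receptor, had counts in the fewest oocytes, 5 of 15. It had 19 counts in T1.3 (7.18 CPM), 67 in T1.4 (23.3 CPM), 8 in T1.6 (9.70 CPM), 5 in T2.1 (4.67 CPM) and 7 in T3.4 (2.67 CPM), and 0 in the other 10 oocytes. In the 7 oocytes of the main set without a count, 0 counts allow a level of up to 0.613 CPM in T1.5 and 1.88 CPM in T2.3, the lowest and highest of these limits, and each is the level of 3 counts (the exact 95% Poisson intervals of 0 counts end higher, at 0.754 and 2.31 CPM). The levels in T1.3, T1.6, T2.1 and T3.4 were above all of those limits, although the exact 95% Poisson interval of T3.4 (1.08 to 5.51 CPM) and that of T2.1 (1.52 to 10.9 CPM) reached below the highest of them. Of all 106 CD44 counts 67 came from T1.4, which is outside the main set.

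CSF1R, the macrophage growth factor receptor, had counts in all 11 oocytes of the main set and in 12 of 15. At T1 it stood at 3.17 CPM in T1.1, 2.76 in T1.2, 13.2 in T1.3, 44.7 in T1.5 and 15.8 in T1.6, and at 0 in T1.4, where up to 1.04 CPM is allowed. At T2 the 4 oocytes lay close together, at 14.0 CPM in T2.1, 8.77 in T2.2, 11.9 in T2.3 and 13.9 in T2.4. At T3 it was 14.1 CPM in T3.4 and a single count in T3.2 (0.353 CPM, 95% interval 0.00893 to 1.97). The oocyte T3.3 gave 18 counts, which in its small library is 66.2 CPM (39.3 to 105), the highest level of all, while T3.1 and T3.5 had 0. T1.5 supplied 219 of the 414 CSF1R counts of the main set.

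SRGN, serglycin, had the widest fold span of the transcripts found in every oocyte of the main set. At T1 it reached 1100 CPM in T1.1, 74.6 in T1.2, 273 in T1.3, 13.1 in T1.5 and 407 in T1.6, while T1.4, with a library of 2874041 counts, had none (a level of up to 1.04 CPM is allowed). At T2 it stood at 8.40 CPM in T2.1, 30.2 in T2.2, 37.0 in T2.3 and 607 in T2.4. At T3 it was 115 CPM in T3.2, 1.53 in T3.4 (4 counts, interval 0.416 to 3.91) and 0 in the other 3 oocytes. Within the main set the highest oocyte was 720-fold above the lowest, and every time point held oocytes far apart (84.1-fold at T1, 72.2-fold at T2 and 75.3-fold at T3). The limits for the 3 T3 oocytes at 0 were 4.83, 11.0 and 17.1 CPM, so a level such as that of T3.4 was not detectable there.

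**Figure D1:**
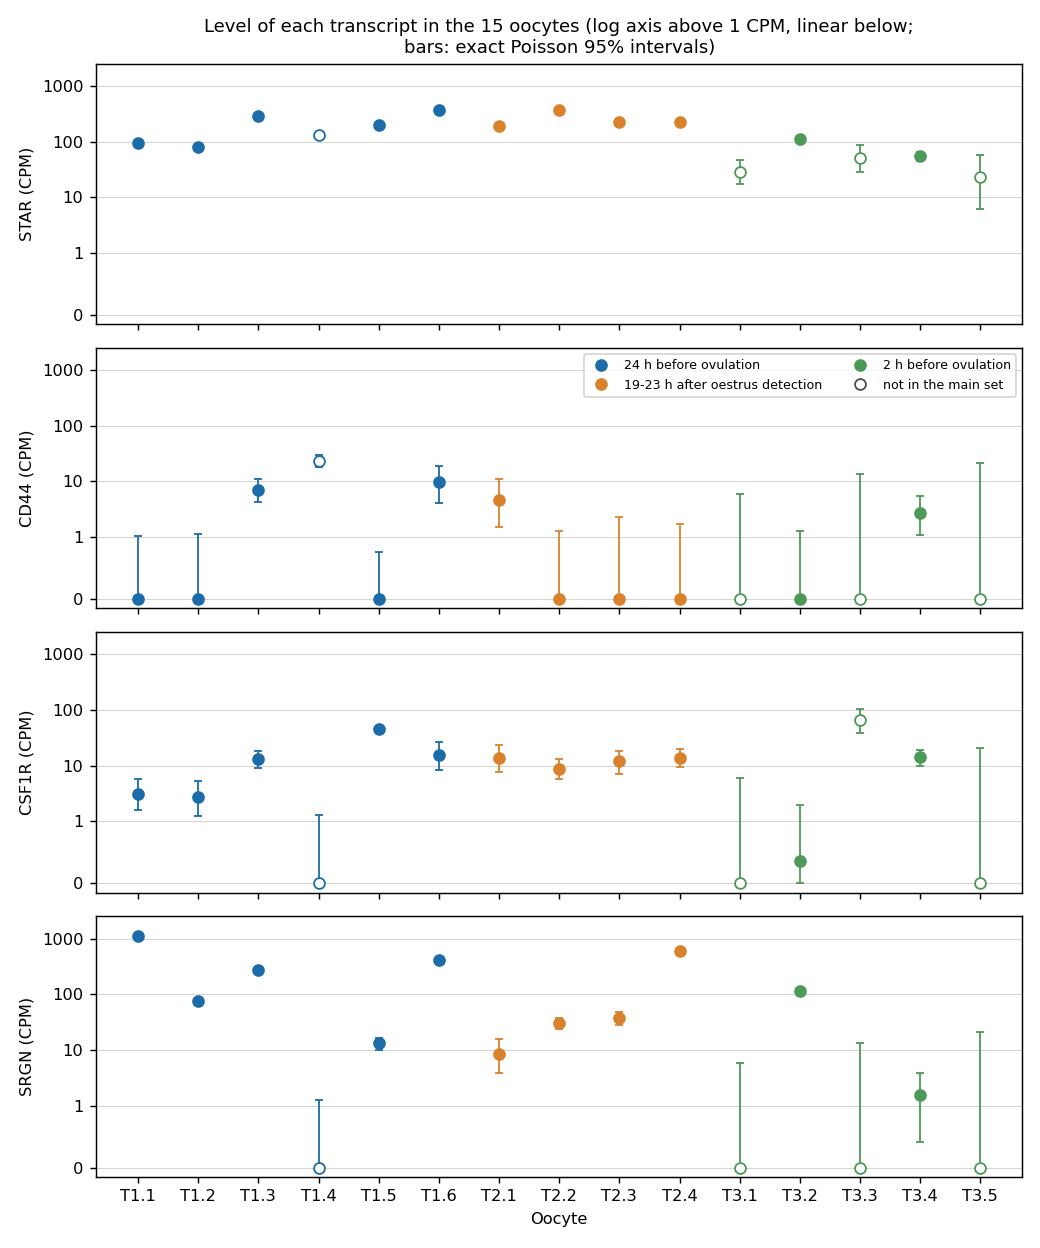
Level of STAR, CD44, CSF1R and SRGN in CPM (y axis, log scale above 1 CPM and linear below) in each of the 15 oocytes (x axis), coloured by time point, with exact Poisson 95% intervals and open symbols for the 4 oocytes outside the main set. STAR stays between 54.3 and 376 CPM in the main set, SRGN runs from 1.53 to 1100 CPM, and CD44 has counts in 5 oocytes.

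The spread of each transcript was set beside that of the 10198 genes that passed the filter on low counts in the main set, on log2 CPM scaled by trimmed mean of M values (TMM) with a prior count of 2. SRGN had an SD of 2.72 over the 11 oocytes, and 0.275% of the genes had a larger one. STAR had an SD of 0.71, and 83.2% of the genes had a larger one. CSF1R (SD 1.36) and CD44 (SD 1.44) were nearer to the median gene, whose SD was 1.26. CD44 had counts in 4 of the 11 oocytes, and at 0 counts the prior count sets the level, so its SD follows that choice. At T1 the SD of CD44 was 1.73 with a prior count of 2, 2.75 with 0.5 and 1.13 with 5.

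Did the 4 transcripts come together? All 4 had counts in 4 oocytes of the main set (T1.3, T1.6, T2.1 and T3.4), and the other 7 had STAR, CSF1R and SRGN without CD44. Outside the main set, T1.4 held STAR and CD44 without a count of CSF1R or SRGN, T3.3 held STAR and CSF1R, and T3.1 and T3.5 held STAR alone. On CPM the oocyte with the highest level was a different one for each transcript, T1.6 for STAR, T1.4 for CD44, T3.3 for CSF1R and T1.1 for SRGN, and within the main set they were T1.6, T1.6, T1.5 and T1.1. The exact intervals of T1.6 (335 to 420 CPM) and T2.2 (343.5 to 388.3 CPM) overlapped for STAR. So did those of T3.3 and T1.5 for CSF1R (39.3 to 105 and 39.0 to 51.1 CPM). For CD44 the intervals of T1.4 (18.1 to 29.6 CPM) and T1.6 (4.19 to 19.1 CPM) overlapped. Within the main set that of T1.6 also overlapped that of T1.3 (4.32 to 11.2 CPM) for CD44. These first places are therefore not separated from the next. With TMM scaling T2.2 was the highest of the main set for STAR (log2 CPM 8.42, against 8.17 in T1.6), and the other 3 were the same. T1.6 was among the 3 highest of the 15 oocytes for every transcript on CPM, but with TMM scaling it was 5th of 11 for CSF1R. T1.1, the highest for SRGN, was 10th of 15 for STAR and 10th of 12 for CSF1R, and had no CD44 count.

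**Figure D2:**
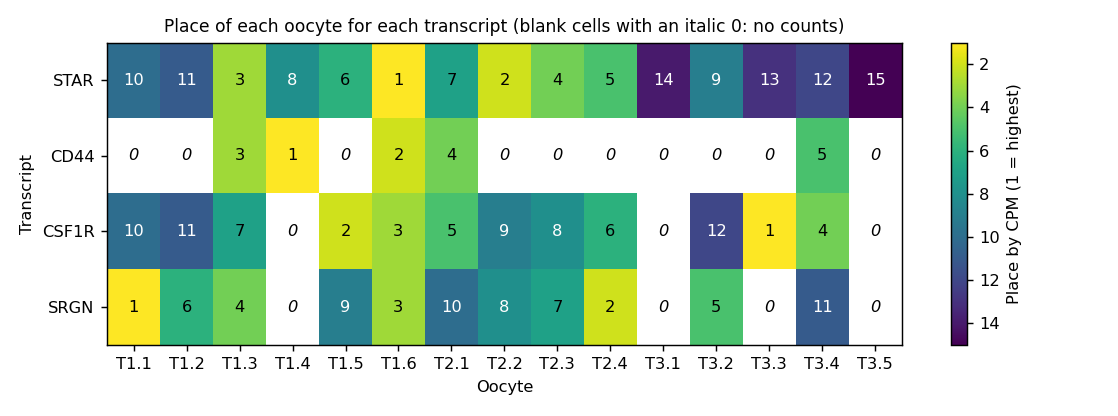
Place of each of the 15 oocytes (x axis) by CPM for each of the 4 transcripts (y axis), from 1 for the highest to 15 for the lowest, with an italic 0 where an oocyte had no counts. Places are by library-size CPM, on which column T1.6 has 1, 2, 3 and 3, while T1.1, T1.4, T1.5, T2.2, T2.4, T3.3 and T3.4 combine high with low or absent transcripts.

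Over the 11 oocytes no pair of transcripts passed a permutation test of its correlation (100000 resamples, two-sided, 6 pairs with Benjamini-Hochberg adjustment). Spearman's rho was 0.158 for STAR and CD44 (permutation p = 0.649, Pearson's r 0.0327, p = 0.928). It was 0.209 for STAR and CSF1R (permutation p = 0.538, r 0.284, p = 0.395) and 0.0727 for STAR and SRGN (permutation p = 0.839, r 0.201, p = 0.555). CD44 and CSF1R had a rho of 0.284 (permutation p = 0.403, r 0.268, p = 0.438) and CD44 and SRGN one of -0.0737 (permutation p = 0.841, r -0.187, p = 0.577). CSF1R and SRGN had the rho farthest from 0, -0.464 (permutation p = 0.155, r -0.447, p = 0.166). The adjusted permutation p was 0.841 for each rho and between 0.693 and 0.928 for r. The 2 values of a pair come from the same library and share its depth, 7 of the 11 CD44 values are at 0, and 11 oocytes leave moderate correlations of either sign undetected.

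The correlations were repeated without the 2 oocytes farthest from the median of the first transcript of a pair. Pearson's r was then 0.248 for STAR and CD44, 0.545 for STAR and CSF1R, -0.0305 for STAR and SRGN, 0.276 for CD44 and CSF1R and -0.523 for CSF1R and SRGN, with permutation p values between 0.124 and 0.936. For CD44 and SRGN, leaving out T1.3 and T1.6 took r to -0.679 (permutation p = 0.0552, n = 9 oocytes, 0.296 after adjustment). Taken as deviations from the mean of each time point, the rho of CSF1R and SRGN was -0.482 (permutation p = 0.302, r -0.697, p = 0.0761), and that of STAR and SRGN was 0.109 (permutation p = 0.790, r 0.0841, p = 0.828). On these deviations it was 0.417 for CD44 and CSF1R (permutation p = 0.289) and 0.333 for STAR and CD44 (permutation p = 0.404). The rho of STAR and CSF1R was 0.191 (permutation p = 0.670) and that of CD44 and SRGN -0.0278 (permutation p = 0.950). Leaving out the single oocyte T2.4 took the rho of CSF1R and SRGN to -0.649 (permutation p = 0.0490 without adjustment, n = 10 oocytes), while leaving out others kept it between -0.309 and that value.

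With all 15 oocytes the rho of STAR and SRGN was 0.549 (permutation p = 0.0365, 0.219 after adjustment over the 6 pairs) and r was 0.589 (permutation p = 0.0204, 0.122 after adjustment). The 4 added oocytes all had 0 SRGN counts, and those of them from T3 had the lowest 3 STAR levels and the 3 smallest libraries, so depth moved with both transcripts and its part in this value was not tested. The rho of CSF1R and SRGN was 0.188 with all 15 oocytes (permutation p = 0.501). The other 4 pairs ranged from 0.119 to 0.366.

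**Figure D3:**
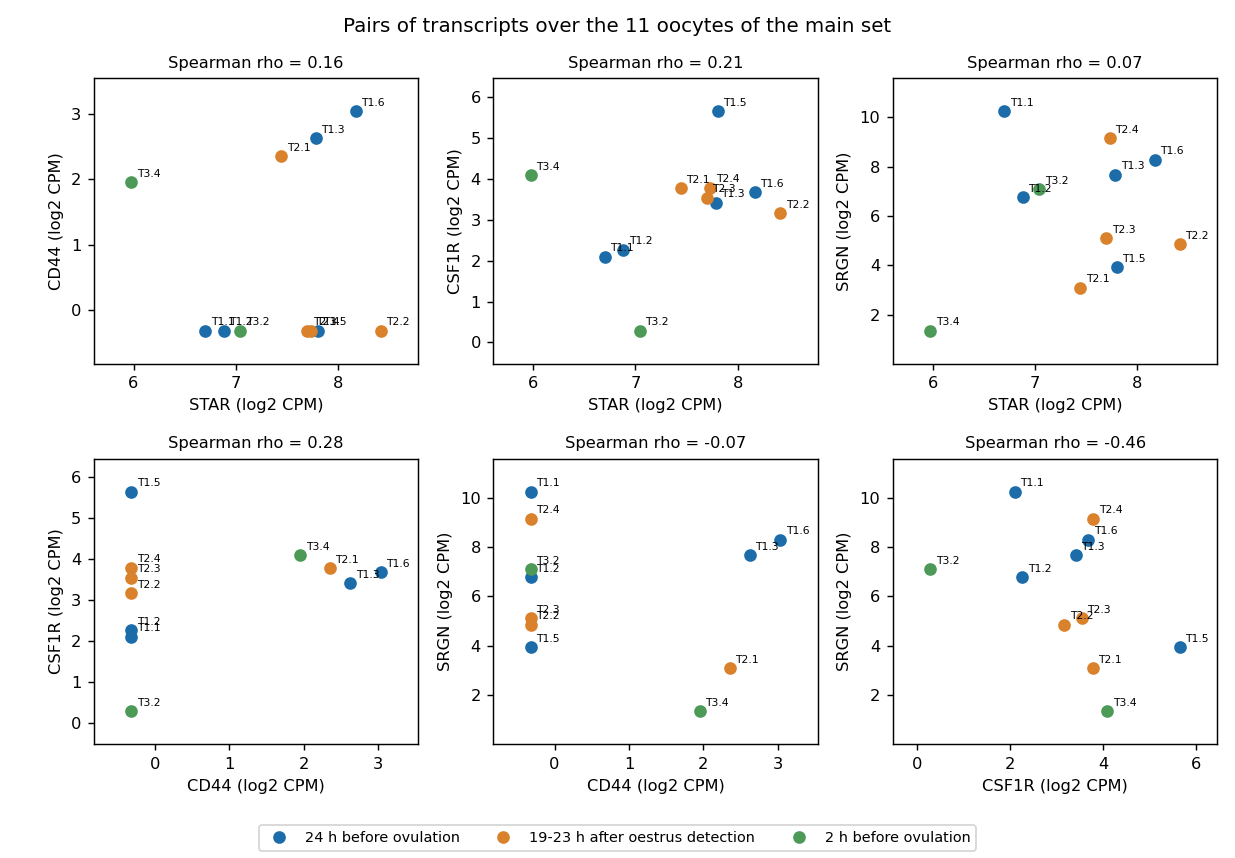
Levels of each pair of transcripts (log2 CPM, TMM scaling, prior count 2) in the 11 oocytes of the main set, 1 panel per pair and 1 labelled point per oocyte, coloured by time point. Spearman's rho runs from -0.46 for CSF1R and SRGN to 0.28 for CD44 and CSF1R, and no pair passed the permutation test.

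Beside other genes, the 4 transcripts were not close to each other. Of the 10197 other genes tested, 93.8% followed SRGN more closely (by rho) than CSF1R did, and 50.5% followed STAR more closely than SRGN did. The nearest pair was CD44 with CSF1R, and still 16.8% of genes followed CD44 more closely than CSF1R did. The median rho over all genes was 0.08 for STAR, -0.01 for CD44, 0.02 for CSF1R and 0.01 for SRGN.

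The genes that followed each transcript most closely among 1663 with a symbol were different for the 4. For STAR they were PRMT7 (rho 0.908), PTPRCAP (0.868) and IMPA2 (0.865). For CD44 they were CNKSR3 (0.769), WDR55 (0.769) and SLC33A1 (0.765). For CSF1R they were TRPV6 (0.927), SUSD3 (0.857) and FOXN1 (0.843), and for SRGN they were RICTOR (0.836), C5H12orf60 (0.825) and ANTKMT (0.816). Over 11 oocytes the highest values among so many genes are large by selection, and they are a description without a test.

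Shares within a library do not depend on how libraries are scaled, and they were computed for pairs of the 4 transcripts. SRGN made up 92.1% of the summed SRGN and STAR counts in T1.1 (3819 against 326 counts, exact 95% binomial interval 91.3 to 92.9%) and 72.8% in T2.4 (1308 against 489, 70.7 to 74.8%). It made up 48.0% in T1.2, 48.1% in T1.3, 52.0% in T1.6 and 50.9% in T3.2, with intervals that overlapped among these 4 oocytes. It made up 14.0% in T2.3, 7.62% in T2.2, 6.11% in T1.5, 4.29% in T2.1 and 2.74% in T3.4 (0.751 to 6.87%). In T1.4 it made up 0 of 375 counts, an interval of 0 to 0.979%. The ratio of SRGN to STAR counts thus differed 416-fold between T1.1 and T3.4, and the intervals were apart in 43 of the 55 pairs of oocytes of the main set.

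CSF1R made up 2.34 to 6.94% of the summed CSF1R and STAR counts in 8 of the 11 oocytes. T1.5 stood above them at 18.2% (16.1 to 20.5%) and T3.4 at 20.7% (15.0 to 27.4%), and T3.2 below at 0.318% (0.00804 to 1.76%). Intervals were apart in 25 of 55 pairs. Outside the main set T3.3 stood at 56.3%, from 18 CSF1R and 14 STAR counts (37.7 to 73.6%). Where CD44 had counts in the main set its share beside STAR had intervals that overlapped, at 2.38% in T1.3, 2.52% in T1.6, 2.43% in T2.1 and 4.70% in T3.4 (1.91 to 9.44%), whereas 0 of 983 counts in T1.5 and 0 of 1042 in T2.2 allow no more than 0.375% and 0.353% (upper ends of the exact intervals). In T1.4 CD44 made up 15.2% (11.9 to 18.9%). The intervals of CD44 beside STAR were apart in 21 of 55 pairs of the main set. Of the summed CD44 and CSF1R counts, CD44 made up 35.2% in T1.3, 38.1% in T1.6, 25.0% in T2.1 and 15.9% in T3.4. Over the main set these intervals were apart in 10 of 55 pairs. Beside SRGN they were apart in 24 of 55 pairs for CD44 and in 43 of 55 for CSF1R. Of the summed CSF1R and SRGN counts, CSF1R made up 0.287% in T1.1, 2.24% in T2.4, 77.4% in T1.5 and 90.2% in T3.4. Reads carried no molecular identifiers, so these intervals cover counting error only. Their width follows the counts, in the main set 39 of CD44 and 414 of CSF1R against 5210 of STAR and 6976 of SRGN. The numbers of pairs apart therefore do not rank the pairs of transcripts by how steady their proportions are.

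**Figure D4:**
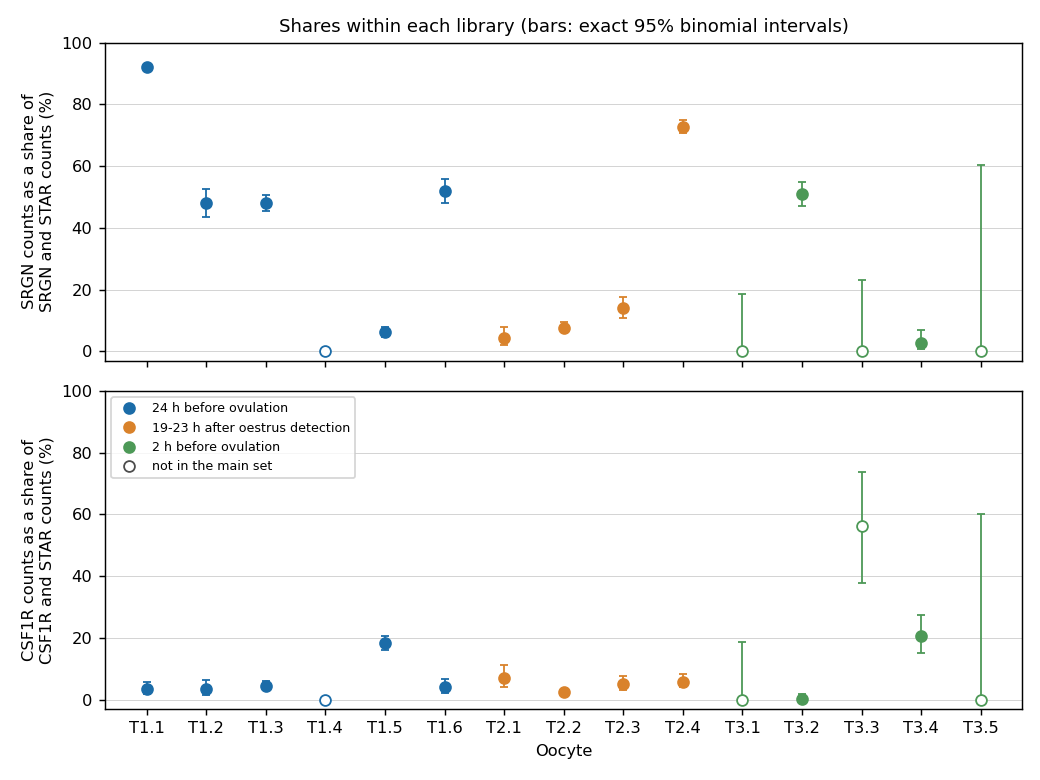
Upper panel, SRGN counts as a percentage of SRGN and STAR counts together in each oocyte (x axis). Lower panel, CSF1R counts as a percentage of CSF1R and STAR counts together. Bars are exact 95% binomial intervals, colours mark time points and open symbols the 4 oocytes outside the main set, and the SRGN share runs from 2.74% in T3.4 to 92.1% in T1.1 within the main set.

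The time points were compared on log2 CPM (TMM, prior count 2) by exact permutation tests, two-sided, and by edgeR's quasi-likelihood test across 10198 genes. STAR averaged 7.47 ± 0.64 at T1 (SD, n = 5), 7.82 ± 0.42 at T2 (n = 4) and 6.51 ± 0.75 at T3 (n = 2). At T3 it was lower than at T2 by a difference of -1.31 (SE 0.57), and both T3 oocytes were below all 4 T2 oocytes, which with n = 2 against 4 gives an exact p of 0.133, the smallest that these numbers allow. The difference was -0.78 without T3.4 and -1.84 without T3.2. Of all genes tested, 18.7% were lower at T3 than at T2 without overlap, so this separation is a common one. Over 10198 genes the edgeR quasi-likelihood test gave STAR a log2 fold change of -1.27 with a Benjamini-Hochberg adjusted p of 0.284. Before adjustment STAR was just below 0.05, which it was not without T1.5, T2.4, T2.3, T2.2 or T3.4, and 8.24% of all genes were lower at T3 below that level, while the median gene changed by -0.10. The differences T2 minus T1 (0.36, SE 0.35, exact p = 0.381) and T3 minus T1 (-0.96, SE 0.60, exact p = 0.286) did not pass the exact test, and these groups overlapped. With n = 2 against 5 the exact p cannot go below 0.0952, and with 2 against 4 not below 0.133, so no comparison of T3 in the main set, for any of the 4 transcripts, could have passed 0.05.

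With all 15 oocytes the STAR difference between T3 and T2 was -2.11 (SE 0.50, exact p = 0.0159, the smallest that 5 against 4 allow), with 5 T3 oocytes below 4 T2 oocytes. On CPM, 12.9% of genes were lower in all T3 than in all T2 oocytes. The difference between T3 and T1 was then -1.74 (SE 0.52, exact p = 0.0130). Both exact p values are without adjustment for the 12 comparisons of a member between time points. The edgeR quasi-likelihood test on 15 oocytes gave adjusted p values of 0.259 for T3 minus T2 and 0.417 for T3 minus T1. The 3 added T3 libraries were the smallest of the series, with 175263 to 620910 counts, and the part of depth in the lower STAR level was not tested.

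SRGN averaged 7.38 ± 2.31 at T1, 5.55 ± 2.56 at T2 and 4.23 ± 4.06 at T3, with differences of -1.83 between T2 and T1 (SE 1.65, exact p = 0.302), -3.16 between T3 and T1 (SE 3.05, exact p = 0.286; -0.28 without T3.4 and -6.03 without T3.2) and -1.33 between T3 and T2 (SE 3.14, exact p = 0.800; 1.55, the opposite sign, without T3.4). CSF1R averaged 3.42 ± 1.43 at T1, 3.57 ± 0.29 at T2 and 2.19 ± 2.69 at T3, with differences of 0.15 (SE 0.65, exact p = 0.905), -1.24 (SE 2.01, exact p = 0.571) and -1.38 (SE 1.91, exact p = 0.667) in the same order. Both differences from T3 turned without T3.2, to 0.67 and 0.52. For CSF1R between T2 and T1 the mean log2 levels differed by 0.15 while the edgeR fold change was -0.50, the opposite sign, and T1.5 alone held 219 of the 287 T1 counts. CD44 averaged 0.94 ± 1.73 at T1, 0.35 ± 1.34 at T2 and 0.82 ± 1.61 at T3, and its differences of -0.59, -0.12 and 0.47 had exact p values from 0.556 to 1. The signs of the CD44 differences from T3 and of the CSF1R difference between T2 and T1 also turned with single oocytes left out. Groups overlapped in all 9 of these comparisons.

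None of the 12 comparisons of a member between time points passed the quasi-likelihood test at an adjusted p of 0.05 with a log2 fold change of 1.5 (adjusted p between 0.284 and 0.981). The background was 0% of genes called in each pair of time points by that test, with 1242, 927 and 1761 genes at an unadjusted p under 0.05 for T2 minus T1, T3 minus T1 and T3 minus T2, so the members' count is that of the background. DESeq2 called 466, 330 and 894 of 14321 genes and none of the 4 members. It gave CD44 no adjusted p for T2 minus T1 and T3 minus T2, so CD44 could not be called there.

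**Figure D5:**
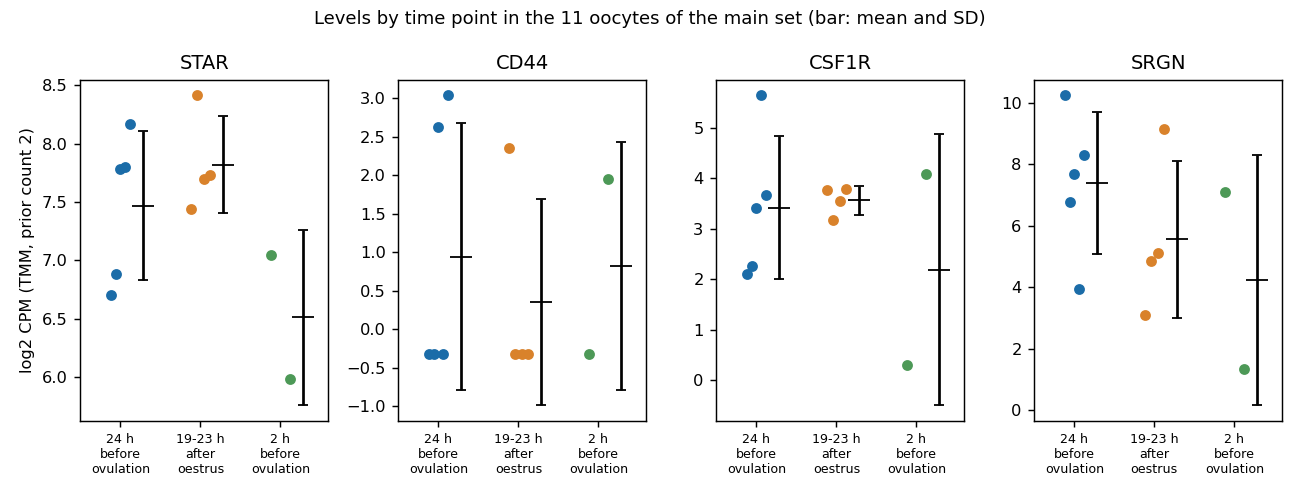
Levels of the 4 transcripts (y axis, log2 CPM with TMM scaling and prior count 2, a different range in each panel) by time point in the 11 oocytes of the main set, 1 point per oocyte, with the mean and SD as a black bar. The 2 T3 oocytes are below the 4 T2 oocytes for STAR, and the groups overlap for CD44, CSF1R and SRGN.

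Other genes of the same pathways were sought by lists, but gene symbols came only from the study's list of 1829 genes, and few members of each list could be named. Of the steroidogenesis list, 4 of 19 genes beside STAR had a name, and POR, the electron donor of the steroid-making cytochromes, averaged 50.5 ± 45.5 CPM (SD, n = 11). NR0B1, a nuclear receptor that represses steroidogenic genes, averaged 21.2 ± 18.3 CPM, and FDXR, the reductase of the mitochondrial electron chain used by steroid side-chain cleavage, 4.34 ± 6.62 CPM with counts in 6 of 11 oocytes. Of the list for signalling from the CSF1 receptor, 3 of 15 genes had a name, and the adaptor GRB2 averaged 16.7 ± 12.3 CPM, the phospholipase PLCG2 7.58 ± 5.95 and the kinase subunit PIK3CD 3.09 ± 4.68. Of the serglycin list, 2 of 19 had a name, CSGALNACT2, which starts chondroitin sulphate chains (213 ± 89.7 CPM, 11 of 11 oocytes), and B4GALT7, which builds the linker of such chains (1.23 ± 2.59 CPM, 6 of 11). None of the 19 other genes of the hyaluronan and cumulus matrix list had a name, and 0 of the 7 pathway genes that passed the filter on low counts were called between any pair of time points by edgeR's quasi-likelihood test, against the same 0% of all genes.

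The presence of other cell types could be checked by their markers only in small part. Of 22 cumulus and granulosa markers beside STAR and CD44, of 11 theca and stroma markers, of 21 leukocyte markers beside CD44, CSF1R and SRGN and of 8 erythrocyte markers, 0 could be named. Of 10 platelet and endothelium markers only VWF, the von Willebrand factor, could be, at 0 to 48.0 CPM with counts in 9 of 11 oocytes. Whether cells of these types were carried over with the oocytes was therefore not tested by their defining markers.

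A further 12 named genes known mainly from leukocytes were picked by name after the levels of the 4 transcripts had been seen. All 12 came from the study's list, chosen partly on these same oocytes, so their detection is in part a result of that choice. Their summed level lay between 339 and 1122 CPM in the main set, and from 8 to 12 of them had counts in each oocyte. The order of the oocytes by this sum depended on MAP4K1, a kinase of blood cells, at 7.47 to 953 CPM. In the main set MAP4K1 was highest in T3.4, T1.2 and T1.5 (953, 590 and 557 CPM). The oocyte marker FIGLA was also highest there (2445, 3056 and 2648 CPM), and both were lowest in T2.1. This likeness was seen afterwards and was not tested. T3.4, the lowest oocyte of the main set for STAR and SRGN, had the highest sum with MAP4K1 (1122 CPM) and the lowest without it (170 CPM), and the fewest of the 12 genes with counts, 8. T1.1, the highest for SRGN, had the lowest sum with MAP4K1 (339 CPM), 317 CPM without it and counts of 10 genes. T1.6, the highest for CD44 in the main set, stood at 387 and 320 CPM with counts of all 12, and T1.5, the highest for CSF1R there, at 916 and 359 CPM with counts of 11. Without MAP4K1, a comparison added after the data were seen, the sums of the main set ran from 170 to 490 CPM, highest in T2.1. STAP1, an adaptor of B cells, stood at 6.50 to 255 CPM, and IRF8, a transcription factor of monocytes and B cells, at 58.2 to 242 CPM. None of the 12 was called between time points by the edgeR quasi-likelihood test. FERMT3, an integrin activator of blood cells, had the smallest adjusted p among them, with a log2 fold change of -6.22 between T3 and T2 (adjusted p = 0.0663), and MAP4K1 had one of 4.52 (adjusted p = 0.0665), in the opposite direction. Both were singled out after their values were seen. PTPRCAP, the second closest gene to STAR by rho, is also one of the 12, with counts in 6 of 11 oocytes.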

How the data were processed

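RNA of 15 single DF oocytes was measured by Smart-seq2 with single-end sequencing. Reads were trimmed by the authors (Trim Galore, version 0.6.6 per the submitters' processing notes) and aligned by HISAT2 to the ARS-UCD1.2 assembly, and the deposited values are raw counts of reads for each Ensembl gene from SeqMonk. Whether strand was used, whether duplicates were removed and which annotation release served are not given in the sources used here, so reads of overlapping genes may be shared. The name of each of the 15 count columns gave its sample. The 4 members and all lists were chosen with earlier results of these data known.

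From the deposited counts, CPM were computed with library totals, which ran from 175263 to 4894970. Time points were compared by the quasi-likelihood test of edgeR (R 4.3.3, edgeR 4.0.16) with TMM scaling, filterByExpr and Benjamini-Hochberg adjustment over 10198 genes, on the 11 oocytes the study retained, with calls at an adjusted p of 0.05 and a log2 fold change of 1.5. The members were also compared by exact permutation tests on log2 CPM (prior count 2), and pairs of members by 100000 permutations, in Python 3.11.15 with scipy 1.17.1. The procedures were tested on simulated data. Oocytes are from different animals, and the p-values measure the spread between oocytes. In that spread, differences between animals, oocytes and libraries cannot be told apart.

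Alternatives were RLE, upper-quartile and library-size scaling, prior counts of 0.5 and 5, no filter, a minimum of 10 counts per oocyte, thinned counts, DESeq2 (version 1.42.0), the likelihood ratio test, all 15 oocytes, a replicate block and each oocyte left out in turn. The genes named are the members, the 3 named genes nearest to each by rho, the 3 highest of each list and, of the 12 leukocyte genes added later, the 3 highest. NLRP5, the 1 further oocyte marker with a symbol, and FERMT3 were named after their values were seen. No sequence of a member was printed, and other oocyte classes and methylation data were not analysed here.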

Additional observations from a re-analysis of the deposited data

Results flagged for a closer look

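CD44 in T2.1 stood apart from the other T2 oocytes, at a log2 CPM of 2.35 (5 counts) while T2.2, T2.3 and T2.4 all had 0 counts, so that the gap was the whole range of the group. Since 3 of the 4 values are tied at 0 counts, any count in the other would have been marked in this way, and the usual rate of chance, about 1 in 20 groups, does not apply. It was the only one of 8 groups examined to stand out, and its 5 counts have an interval (1.52 to 10.9 CPM) that reaches below the limit of 1.88 CPM in T2.3.

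Of the 4 oocytes outside the main set, each had STAR counts, T3.5 4, T3.3 14, T3.1 18 and T1.4 375, all above the 3 counts that an observed 0 allows. CD44 had 67 counts in T1.4, the highest of all 15 oocytes, beside 0 counts of CSF1R and SRGN. CSF1R had 18 counts in T3.3, beside 0 counts of CD44 and SRGN.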

How the results depend on the processing

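No member was called between time points under any setting in which it was tested, and with a minimum of 10 counts per oocyte only STAR was. DESeq2 gave CD44 no adjusted p for T2 minus T1 and T3 minus T2. The counts of genes called (T2 minus T1, T3 minus T1, T3 minus T2) were 0 in each in the main comparison. They were 466, 330 and 894 of 14321 genes with DESeq2 and 361, 139 and 701 of 10198 with the likelihood ratio test. A minimum of 10 counts per oocyte gave 158, 0 and 214 of 4161. No filter on low counts gave 234, 1 and 371 of 14321, and RLE factors gave 0, 0 and 17 of 10198. The cause was not tested. Leaving out 1 oocyte gave 0 to 376, 0 to 15 and 0 to 403 calls, with T2 minus T1 at 376 without T1.1, T3 minus T1 at 15 without T1.2, and T3 minus T2 at 316 without T1.1, 403 without T1.2 and 94 without T3.2. Without T3.2 or T3.4 the lone T3 oocyte was assumed to vary like the others.

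By the sample labels the replicate numbers do not pair the oocytes, which are from different animals. Correlations of deviations from the time-point means were -0.02 to 0.14 for same-numbered oocytes and -0.13 to 0.07 for others, without a test. With a replicate block the calls were 0, 0 and 1, and the edgeR fold changes turned for CSF1R T2 minus T1 (0.72), CD44 T3 minus T1 (3.08) and SRGN T3 minus T2 (0.75).

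With all 15 oocytes STAR had an unadjusted exact permutation p under 0.05 for T3 minus T1 (-1.74) and T3 minus T2 (-2.11). The rho of STAR and SRGN rose to 0.549. Signs turned for the rho of CD44 and SRGN (0.119) and of CSF1R and SRGN (0.188), CD44 T3 minus T2 (-0.20, edgeR -0.0541) and the edgeR fold changes of CSF1R T3 minus T1 (0.55) and T3 minus T2 (0.78). A prior count of 0.5 turned CD44 T3 minus T1 (0.0062), and thinning turned CSF1R T2 minus T1 (-0.074). With library-size scaling the rho was 0.474 for CD44 and CSF1R, 0.268 for STAR and CD44 and 0.264 for STAR and CSF1R. It was 0.2455 for STAR and SRGN, -0.108 for CD44 and SRGN and -0.336 for CSF1R and SRGN. With RLE factors the rho of CD44 and CSF1R was 0.446. The adjusted permutation p was 0.513 or more for each rho with either scaling.

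Leaving out each oocyte moved the log2 differences of CD44 from -1.26 to 1.01 (T3 minus T1), from -0.67 to 1.603 (T3 minus T2) and from -1.26 to -0.07 (T2 minus T1). Those of CSF1R ran from -0.19 to 0.70 (T2 minus T1), -3.14 to 0.67 (T3 minus T1) and -3.28 to 0.52 (T3 minus T2), and those of SRGN from -3.03 to -1.01 (T2 minus T1), -6.03 to -0.28 (T3 minus T1) and -4.20 to 1.55 (T3 minus T2). Those of STAR kept their sign, at 0.16 to 0.53 (T2 minus T1), -1.49 to -0.42 (T3 minus T1) and -1.84 to -0.78 (T3 minus T2), the last 2 nearest to 0 without T3.4. The rho ran from -0.0820 to 0.341 for STAR and CD44, 0.0788 to 0.515 for STAR and CSF1R, 0.191 to 0.464 for CD44 and CSF1R, -0.236 to 0.309 for STAR and SRGN, -0.306 to 0.0683 for CD44 and SRGN and -0.649 to -0.309 for CSF1R and SRGN, lowest without T2.4. The edgeR fold changes ran from -0.76 to 0.61 (T2 minus T1), -5.05 to 0.19 (T3 minus T1) and -4.67 to 0.41 (T3 minus T2) for CSF1R, -3.98 to 0.0029 (T2 minus T1) and -6.58 to 1.56 (T3 minus T2) for SRGN, and -5.70 to 0.24 (T3 minus T1) and -4.42 to 5.02 (T3 minus T2) for CD44.

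Few T3 oocytes, counts of CD44 at or below 19 in the main set and libraries as small as 175263 counts limit these comparisons, and cumulus, theca and leukocyte markers other than the members went unnamed.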
